A study of Mus musculus with 11 samples.

Results

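Collagens are the most abundant structural proteins of the extracellular matrix. The 42 collagen genes read here are all those whose symbol in the deposited mRNA table is Col, a type number, the letter a and a chain number, out of 21759 gene symbols in the table. They were chosen by symbol alone and sorted by type number into 11 fibrillar, 6 basement membrane, 5 beaded, 9 FACIT (fibril-associated, with interrupted triple helices) and 11 other collagens. The related symbol Col4a3bp, which codes for a ceramide carrier, was not a member. The mice fell into 3 groups, which were 3 C57 mice (wildtype, strain C57/B10, labelled C1 to C3), 4 untreated *mdx* mice (M1 to M4) and 4 *mdx* mice treated with Pip6e-PMO (T1 to T4). Per the methods all were males, the wild-type mice C57/Bl10 and the dystrophic mice C57/Bl10ScSn-Dmd mdx/J, so that both *mdx* groups lacked normal dystrophin and shared a C57/Bl10 background. Pip6e-PMO is a morpholino antisense oligonucleotide joined to a cell-penetrating peptide, which makes the splicing machinery leave out the mutated exon of the Dmd transcript. The treated mice received 12.5 mg/kg once, into the tail vein, when 12 weeks old, and the tibialis anterior (TA), a fast muscle of the lower leg, was taken from all 11 mice at 14 weeks of age. RNA came from cryosections of the middle of the muscle belly. A group given a control oligonucleotide or saline was not analysed here, so effects of the injection and of the oligonucleotide sequence cannot be told apart.

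A collagen molecule is built from 3 chains that wind into a triple helix inside the endoplasmic reticulum, where prolines and lysines are hydroxylated and the chaperone Hsp47 binds the finished helix. Fibrillar collagens are trimmed and cross-linked outside the cell into the fibrils of tendon and of the connective tissue around fibres and fascicles. Type IV forms the network of the basement membrane around each muscle fibre, type VI forms beaded microfibrils next to it, and FACIT collagens sit on the surface of fibrils. Fibroblasts make most of the collagen in muscle, and excess collagen between the fibres, fibrosis, is a hallmark of dystrophic muscle. In RNA from whole sections of muscle, fewer cells of a type and less RNA per cell cannot be told apart.

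All levels below are log2 of the deposited array intensity, and all differences are between group means of these levels, so that 1 unit is a doubling. Of the 42 members, 31 reached a mean intensity of 30 in at least 1 group and were tested with limma, with p-values adjusted over all 14494 probe sets that did; a member is said to have risen or fallen only at an adjusted p under 0.05. Within the 31, Col9a1 and Col9a3 reached 30 in 1 group alone and Col9a2 in 2 groups. The other 11 were Col24a1 (fibrillar), Col4a3, Col4a4, Col4a5 and Col4a6 (basement membrane), Col6a4 (beaded), Col19a1 (FACIT), Col10a1, Col17a1, Col25a1 and Col28a1 (other). Their levels lay between 3.31 and 4.95 in every mouse, where the log2 of 30 is 4.91, and their *mdx* minus C57 differences were between −0.22 and 0.10.

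Fast-fibre genes showed the tissue to be skeletal muscle: the summed level of Acta1, Ckm, Myh4, Myh1, Tnnt3, Tnni2, Mylpf and Pvalb was 15.7 to 15.8 in all 11 mice. Dmd itself ranged over 5.77 to 5.87 (C57), 4.60 to 5.82 (*mdx*) and 5.51 to 6.34 (treated), and was called in neither group against C57 by limma (adjusted p = 0.198 and 0.961); its probe set reads the whole transcript and checks neither the mutation nor the exon skipping. Treated mouse T2 stood apart from the other treated mice in the collagens. It had the highest level of the 4 treated mice in 31 of the 42 members, against 29.8% of all 28350 probe sets, and the highest of all 11 mice in 21 members. T1 had the lowest level of the treated mice in 21 members. For both counts of 21 no share over all probe sets was computed. T2 was singled out after these values were seen, and leaving it out lowers the treated mean of those 31 members by construction. Per the paper, its treated sample T2 had the least exon skipping by quantitative PCR and the least dystrophin by mass spectrometry. Western blot values did not correlate significantly with either. The paper also places T2 closest to *mdx* samples in its mRNA clustering. The match to the mouse read here rests on the shared name. Differences of treated from *mdx* mice are given with and without T2. Nothing but the group and mouse number is known of the order in which arrays were run, and p-values measure the spread between these mice.

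In *mdx* muscle 13 collagen genes were up-regulated and none was down-regulated. The 13 were Col3a1, Col5a2 and Col5a3 among the fibrillar collagens, Col4a1 and Col4a2 of the basement membrane, all 4 tested chains of the beaded type VI (Col6a1, Col6a2, Col6a3 and Col6a6), the FACIT genes Col14a1 and Col22a1, and Col8a1 and Col15a1 among the others. They made up 13 of the 42 members (13 of the 31 tested), where 7.06% of all tested probe sets were called higher and 4.96% lower in *mdx*. Their differences ran from 0.34 (1.27-fold, Col6a6) to 1.38 (2.60-fold, Col3a1). In 18 of the 42 members every *mdx* mouse lay above every C57 mouse, as did 13.1% of all tested probe sets; the 5 beyond the 13 called were Col1a2, Col5a1, Col12a1, Col16a1 and Col18a1. The median difference over all 42 members was 0.10, against −0.01 over all probe sets tested. The study's own rule, the methods' t-test at an unadjusted p under 0.01 with a 1.5-fold change, called 12 members higher and none lower, against 3.96% of tested probe sets called higher by that rule.

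**Figure D1:**
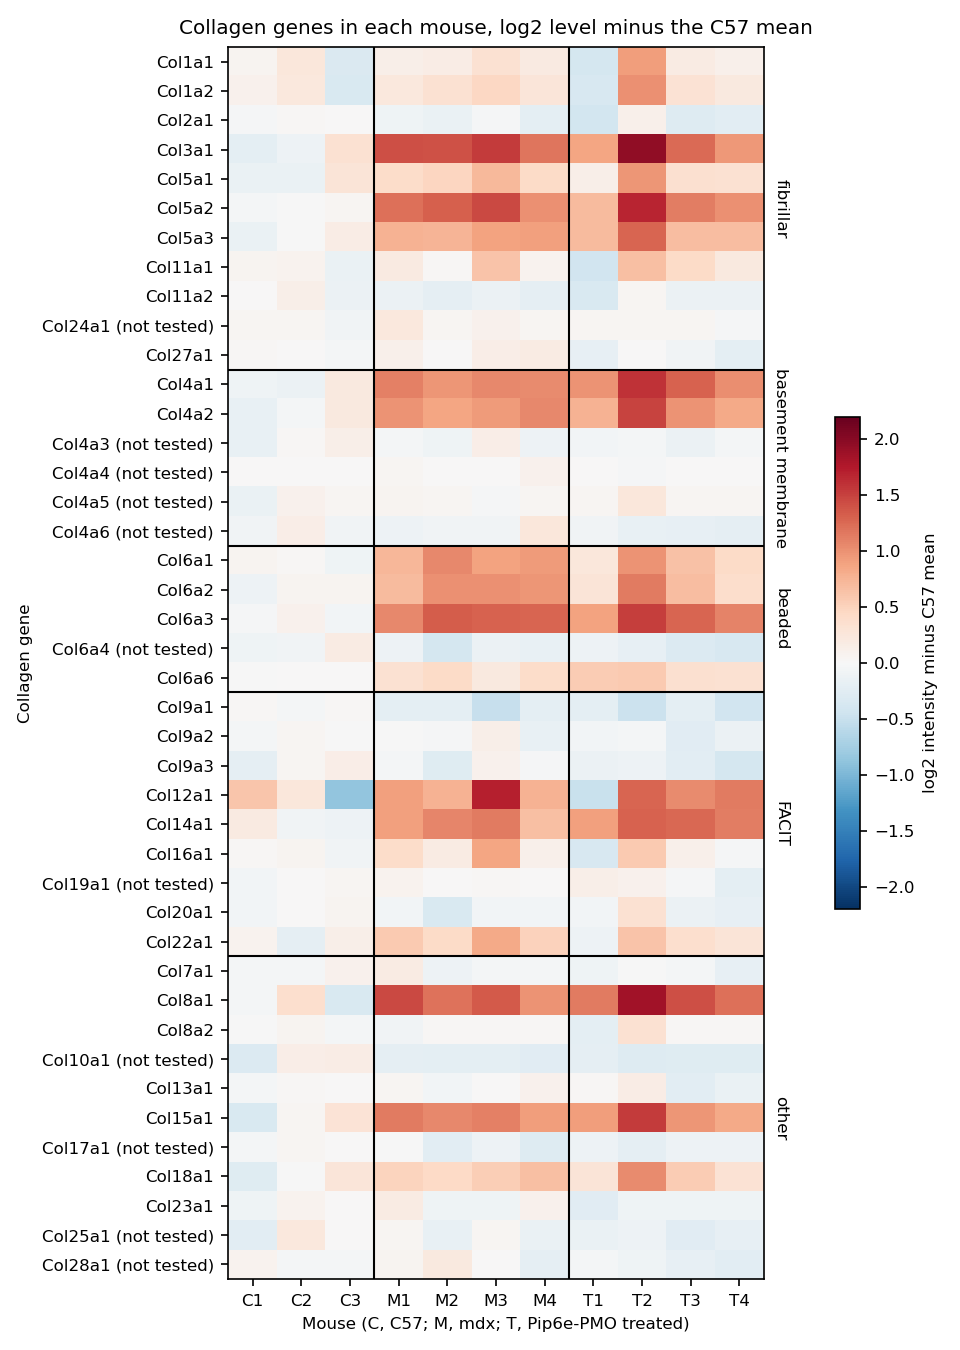
Log2 level of each collagen gene (lines of the map, by class) in each of the 11 mice (C, C57; M, mdx; T, treated), drawn as the difference from the C57 mean of that gene; red is higher and blue lower, and genes under the intensity minimum are marked as not tested. The genes that rose in mdx mice, such as Col3a1, Col5a2, Col4a1, Col6a3 and Col8a1, are red in all 8 dystrophic mice, Col1a1 and Col1a2 are pale except in T2, and T2 has the highest level of 21 genes.

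Among the fibrillar collagens the rise was uneven. Col3a1 codes for type III collagen, which forms fine fibrils around muscle fibres and in healing wounds. It read 8.37, 8.47 and 8.92 in the C57 mice, 10.01, 9.98, 10.12 and 9.76 in *mdx* and 9.46, 10.54, 9.84 and 9.54 in treated mice. Every dystrophic mouse, treated or not, lay above every C57 mouse, and Col3a1 was 1.38 ± 0.23 (SE) higher in *mdx* (limma adjusted p = 0.0023). Type V collagen is buried in the core of fibrils and sets their diameter. Col5a2, one of its chains, read 5.82, 5.85 and 5.90 in C57, 7.06, 7.17, 7.31 and 6.86 in *mdx* and 6.56, 7.53, 6.99 and 6.86 in treated mice. The lowest dystrophic mouse, T1, was 0.66 above the highest C57 mouse, and Col5a2 rose by 1.24 ± 0.19 (SE) in *mdx* (limma adjusted p = 0.0012). Col5a3, a rarer chain of the same type, rose by 0.82, from 5.79 ± 0.16 (SD, n = 3) in C57 to 6.61 ± 0.08 (SD, n = 4) in *mdx* (limma adjusted p = 0.0038).

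The chains of type I collagen, the bulk of tendon, bone and scar, were not called in *mdx* muscle. Col1a1 read 11, 11.20 and 10.63 in C57, 11.07, 11.10, 11.28 and 11.14 in *mdx* and 10.55, 11.87, 11.12 and 11.06 in treated mice. The C57 and *mdx* mice overlapped, and the difference was 0.20 (95% interval −0.32 to 0.73, limma adjusted p = 0.672). Its partner Col1a2 read 10.49, 10.62 and 10.06 in C57, 10.63, 10.72, 10.84 and 10.66 in *mdx* and 10.04, 11.39, 10.71 and 10.60 in treated mice. Its lowest *mdx* mouse was level with the highest C57 mouse to within 0.01, and the difference was 0.32 (95% interval −0.21 to 0.85, limma adjusted p = 0.470). Col5a1 read 6.59, 6.59 and 7.02 in C57, 7.13, 7.21, 7.45 and 7.15 in *mdx* and 6.86, 7.70, 7.08 and 7.07 in treated mice. C3 stood apart from both other C57 mice and reached to within 0.11 of the *mdx* mice, and the difference of 0.50 was not called (limma adjusted p = 0.104). The remaining tested fibrillar genes, Col2a1, Col11a1, Col11a2 and Col27a1, which are best known from cartilage, differed between *mdx* and C57 by −0.17 to 0.23, and none was called.

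The mice lowest in type I collagen were also lowest in tendon genes. The summed level of 8 tendon markers (Tnmd, Scx, Mkx, Fmod, Kera, Thbs4, Comp and Chad) read 13.34, 13.28 and 11.90 in C57, 12.41, 13.36, 12.84 and 13.29 in *mdx* and 11.83, 13.31, 13.08 and 13.12 in treated mice. All 8 were tested and none was called in any comparison, but C3 and T1 lay lowest of their groups in this sum, in Col1a1, in Col1a2 and in Col12a1. The tendon markers' part in these collagens was not tested. C3 and T1 were then left out together, a choice made after seeing the data. Col1a1 and Col1a2 then differed between *mdx* and C57 by 0.05 and 0.16 (limma adjusted p = 0.926 and 0.706). C3 was the lowest C57 mouse in both genes, so leaving it out narrows their differences by construction. M1, the lowest *mdx* mouse in the tendon sum, stayed in. In that fit 12 of the 13 calls remained, at a background of 4.95% of tested probe sets called higher, and Col6a6 was not called (limma adjusted p = 0.0835). Of 8 cartilage and bone markers (Acan, Matn1, Matn3, Sox9, Hapln1, Ibsp, Bglap and Sp7), 3 reached the intensity minimum and none was called. Ibsp reached it in the *mdx* group alone, through M1 at 6.4 and M3 at 7.04, against 2.98 to 4.02 in all other mice. The protease gene Mmp13, also not called, read 9.11 and 9.55 in M1 and M3 against 3.85 to 5.74 elsewhere. Sox9 was highest in M4 and Bglap in M3. The part of bone or cartilage in the collagen levels was not tested.

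**Figure D2:**
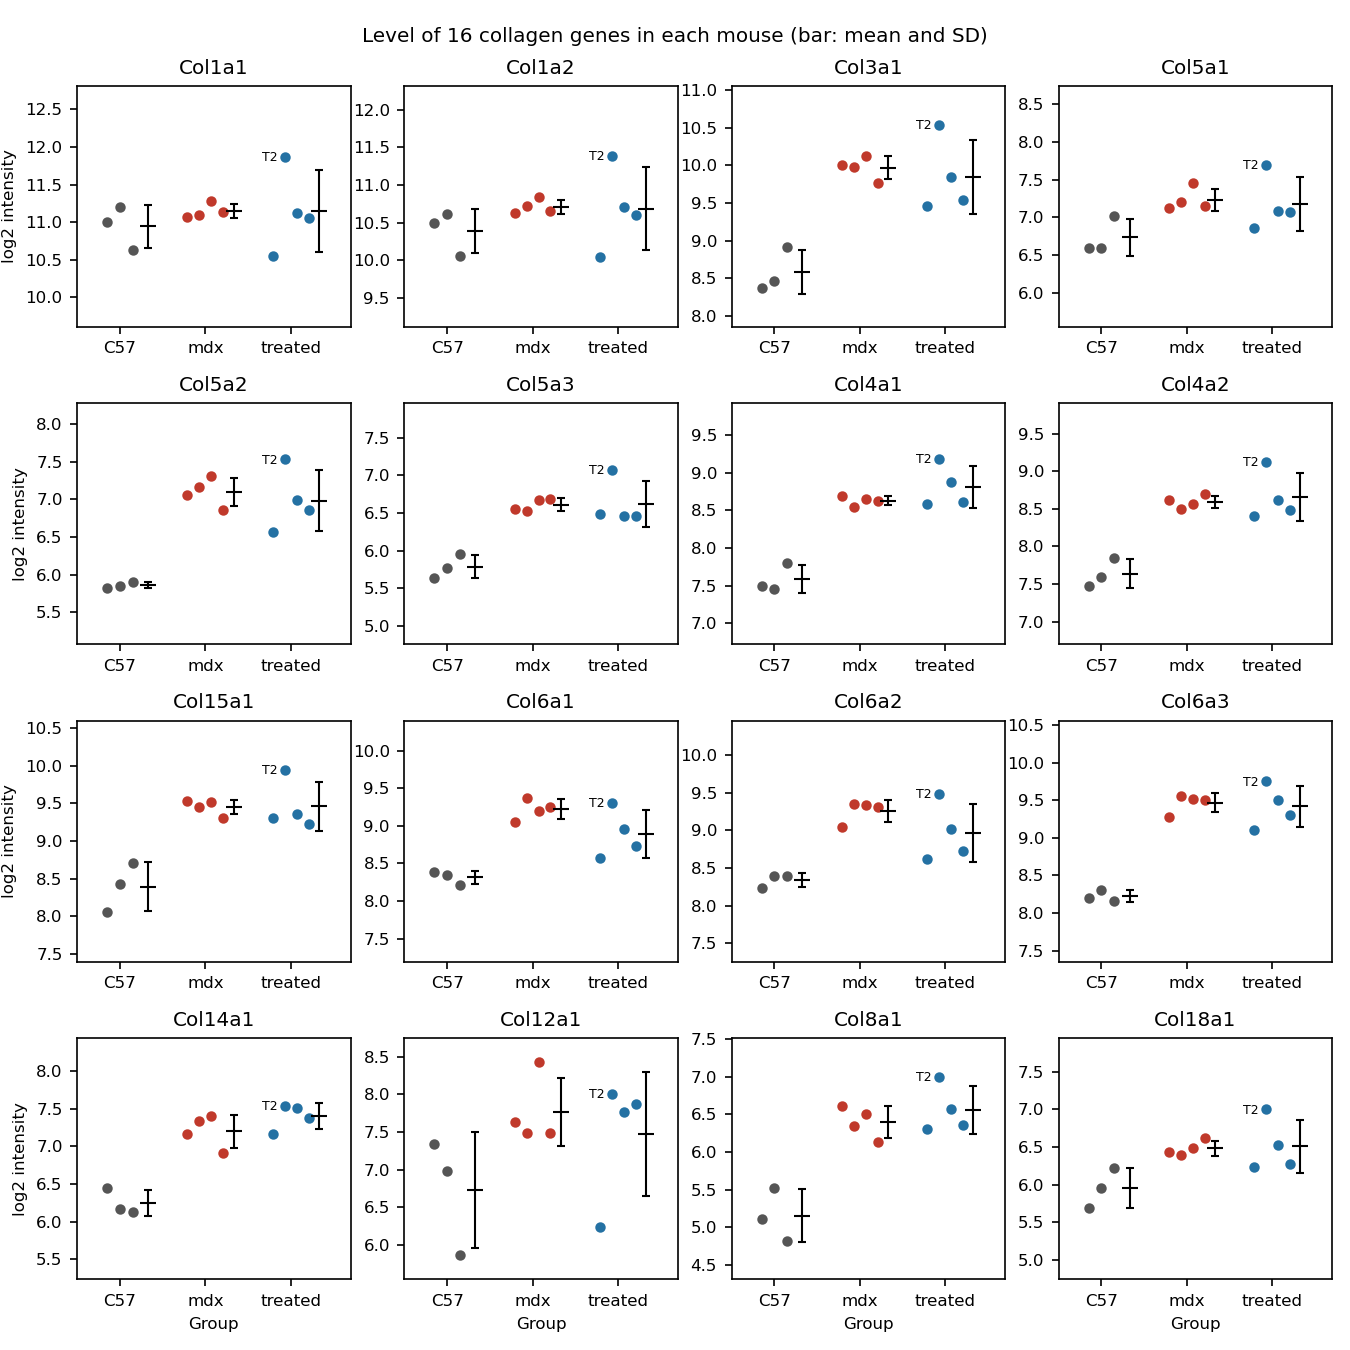
Log2 intensity (vertical axis, of the same span in every panel) of the main collagen chains in each mouse by group, with the group mean and SD beside the points and T2 marked. Col3a1, Col5a2, Col4a1, Col4a2, Col6a3, Col14a1 and Col8a1 show no overlap of C57 with either dystrophic group, while in Col1a1 the 3 groups overlap, and T2 is the highest treated mouse in every panel.

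The basement membrane chains Col4a1 and Col4a2, which twine together as the standard type IV collagen of most tissues, rose by similar amounts. Col4a1 read 7.50, 7.46 and 7.80 in C57, 8.69, 8.55, 8.65 and 8.63 in *mdx* and 8.58, 9.18, 8.88 and 8.61 in treated mice. The *mdx* mice were close together, 0.75 or more above the C57 mice, and the difference was 1.04 ± 0.14 (SE; limma adjusted p = 7.3e-04). Col4a2 read 7.48, 7.59 and 7.85 in C57, 8.62, 8.50, 8.57 and 8.69 in *mdx* and 8.41, 9.12, 8.62 and 8.48 in treated mice. It was likewise above C57 in all 8 dystrophic mice, by 0.96 ± 0.16 (SE) in *mdx* (limma adjusted p = 0.0023). The other 4 type IV chains, known from kidney, lung, eye and skin, stayed under the intensity minimum, and 7 of 12 further basement membrane genes rose in *mdx*, where 7.06% of all tested probe sets did. The largest were Pxdn, the peroxidase that cross-links type IV collagen, by 0.81 (limma adjusted p = 5.2e-04), the laminin chain gene Lamb1 by 0.77 (0.0030), Nid2, which codes for a nidogen that bridges laminin and type IV collagen, by 0.73 (0.0038), and Lama2, the laminin chain that binds dystroglycan on the fibre, by 0.69 (0.029). None of the 12 fell.

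Of both multiplexins, collagens of the zone between basement membrane and fibrils, Col15a1 rose in *mdx* and Col18a1 did not pass the test. Col15a1 read 8.05, 8.43 and 8.70 in C57, 9.53, 9.45, 9.51 and 9.31 in *mdx* and 9.31, 9.94, 9.36 and 9.23 in treated mice. All dystrophic mice lay above C57, in which the values were widely spread, and the difference of 1.06 ± 0.18 (SE) was called (limma adjusted p = 0.0027). Col18a1, which codes for the precursor of endostatin, read 5.69, 5.95 and 6.22 in C57, 6.44, 6.39, 6.49 and 6.62 in *mdx* and 6.24, 7.00, 6.52 and 6.27 in treated mice. The *mdx* mice did not overlap C57, but the difference of 0.53 was not called (limma adjusted p = 0.076).

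All tested chains of type VI collagen rose in *mdx*, while Col6a4 stayed under the intensity minimum. Mutations of Col6a1, Col6a2 and Col6a3 in man cause Ullrich and Bethlem muscular disease. Col6a1 read 8.38, 8.35 and 8.22 in C57, 9.05, 9.37, 9.20 and 9.25 in *mdx* and 8.57, 9.30, 8.96 and 8.73 in treated mice. The *mdx* mice stood 0.67 or more above C57 while 3 treated mice lay between both groups, and the *mdx* difference was 0.90 ± 0.15 (SE; limma adjusted p = 0.0026). Col6a2 read 8.23, 8.39 and 8.39 in C57, 9.04, 9.35, 9.34 and 9.31 in *mdx* and 8.62, 9.48, 9.02 and 8.73 in treated mice. It showed the same order of mice in the treated group, with T1 lowest and T2 highest, and rose by 0.92 ± 0.18 (SE) in *mdx* (limma adjusted p = 0.0052). Col6a3 read 8.20, 8.31 and 8.16 in C57, 9.28, 9.56, 9.52 and 9.50 in *mdx* and 9.11, 9.75, 9.50 and 9.31 in treated mice. All 8 dystrophic mice lay at least 0.80 above C57, and with 1.24 ± 0.14 (SE) it had the smallest adjusted p of the members (limma, 1.9e-04). Col6a6, a chain that can stand in for the product of Col6a3, rose by only 0.34 (limma adjusted p = 0.035), and its second probe set by 0.37 (0.056).

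Of the FACIT genes Col14a1 and Col22a1 rose. Col14a1, whose product coats fibrils of tendon and of the sheaths of muscle, read 6.45, 6.17 and 6.13 in C57, 7.16, 7.33, 7.40 and 6.91 in *mdx* and 7.16, 7.54, 7.51 and 7.38 in treated mice. No dystrophic mouse overlapped C57, and the difference was 0.95 ± 0.14 (SE; limma adjusted p = 0.0011). Col22a1, which marks the junction of fibre and tendon, rose by 0.59, from 5.70 ± 0.17 (SD, n = 3) to 6.28 ± 0.18 (SD, n = 4; limma adjusted p = 0.036). Col12a1, a FACIT gene of tendon and the perimysium, had a difference of 1.03 in *mdx*, as large as that of Col4a1, but was not called (95% interval 0.08 to 1.99, limma adjusted p = 0.163). Its C57 mice ran from 5.86 in C3 to 7.34 in C1. Col16a1 (0.39), Col20a1 (−0.13), Col9a1 (−0.28), Col9a2 (−0.02) and Col9a3 (−0.06) were not called either. For Col20a1 the choice of probe set mattered: its second probe set, which lies downstream on the same strand, was 0.70 lower in *mdx* (limma adjusted p = 0.013). The second Col5a1 probe set, on the opposite strand to the gene, differed by 0.17.

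Among the other collagens Col8a1 rose besides Col15a1. Col8a1 codes for a short-chain collagen of vessel walls, and read 5.11, 5.52 and 4.82 in C57, 6.61, 6.34, 6.50 and 6.13 in *mdx* and 6.30, 7.00, 6.57 and 6.36 in treated mice. The gap between the highest C57 and the lowest dystrophic mouse was 0.61, and the difference of 1.25 ± 0.20 (SE) in *mdx* was called (limma adjusted p = 0.0017). Col7a1, Col8a2, Col13a1 and Col23a1 had differences between −0.0042 and 0.025, and none was called.

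**Figure D3:**
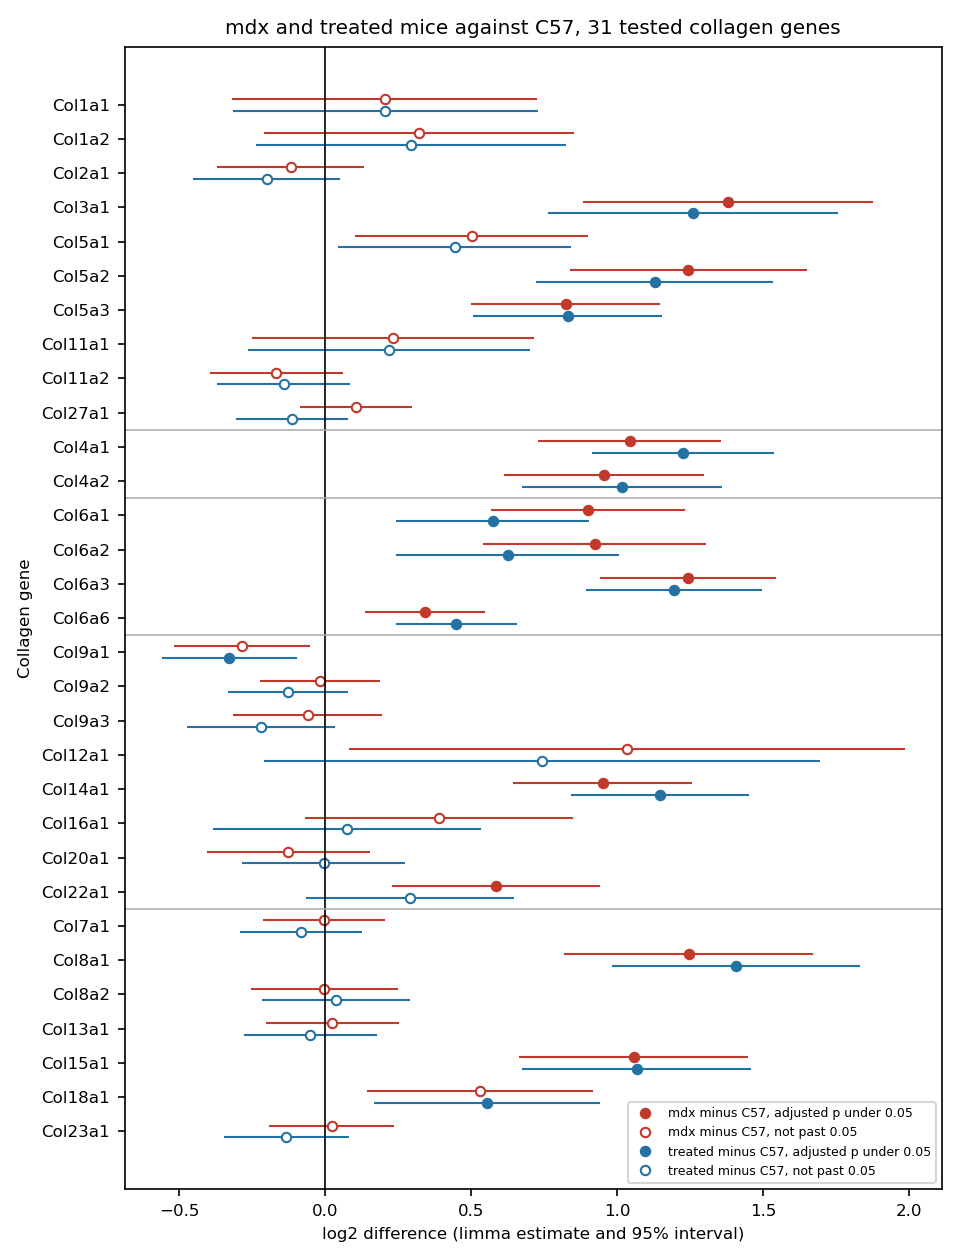
Log2 difference from C57 (horizontal axis) with its 95% limma interval for the 31 tested collagen genes, in untreated mdx (red) and treated mdx mice (blue); filled points passed an adjusted p under 0.05 and lines part the classes. The called genes lie between 0.34 and 1.41 except Col9a1 in treated mice at −0.33; both contrasts use the same 3 C57 mice.

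Treatment with Pip6e-PMO left no collagen gene called against untreated *mdx*. Limma called 0 of the 42 members in either direction (2 had an unadjusted p under 0.05, and the methods' t-test also called 0), while among all tested probe sets treatment raised 7.26% and lowered 3.88% at the same threshold. In no member did every treated mouse lie below every *mdx* mouse, as happened in 6.69% of tested probe sets. The median difference over the 42 members was −0.04, against 0.02 over all tested probe sets and −0.04 over all 28350. For the 13 genes that rose in *mdx*, the treated minus *mdx* differences ran from −0.33 to 0.20 with a median of 0.01, and the outer limits of their 95% intervals were −0.65 and 0.56. The 2 genes with an unadjusted p under 0.05 were Col27a1, with a difference of −0.22 (limma adjusted p = 0.092), and Col6a1, with −0.33 (0.136).

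Without T2, limma called 3 of the 31 tested members, all lower after treatment. These were Col6a1 by 0.46 (adjusted p = 0.013), Col6a2 by 0.47 (0.015) and Col27a1 by 0.26 (0.033). That share was no larger than the 12.0% of all tested probe sets called lower without T2. No member was called higher, where 16.4% of all tested probe sets were. In Col6a1 the 3 remaining treated mice, at 8.57, 8.96 and 8.73, all lay below the lowest *mdx* mouse at 9.05. In Col6a2 they read 8.62, 9.02 and 8.73, below the lowest *mdx* mouse at 9.04. The share of all probe sets with this order of mice without T2 was not computed. Col3a1 and Col5a2 had differences of −0.35 and −0.30 without T2 and were not called (adjusted p = 0.090 and 0.096), while Col4a1, Col14a1 and Col8a1 kept differences above 0 (0.06, 0.15 and 0.02). T2 was also the highest treated mouse in the summed regenerating-fibre markers (Myh3, Myh8, Myog, Mymk, Myl4 and Ncam1), a sum of linear intensities. It had 11.95 against 11.02, 11.22 and 10.76 in T1, T3 and T4, where *mdx* mice had 11.75 to 12.49 and C57 mice 10.11 to 10.67. Singly, T2 was highest of the treated mice in Myh3, Myog, Mymk and Myl4. T1 was above T2 in Myh8 (6.10 against 5.84) and Ncam1 (7.92 against 7.63). The summed macrophage markers of T2 were 11.32 against 10.97, 11.09 and 11.13. Singly, T2 was highest in Cd68, Adgre1, Csf1r and Itgam but not in Mrc1, Cd163 or Lyz2. Its summed endothelial markers, at 11.45, were the lowest of the treated mice. The part of exon skipping, fibre regeneration or any cell type in its collagen levels was not tested.

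**Figure D4:**
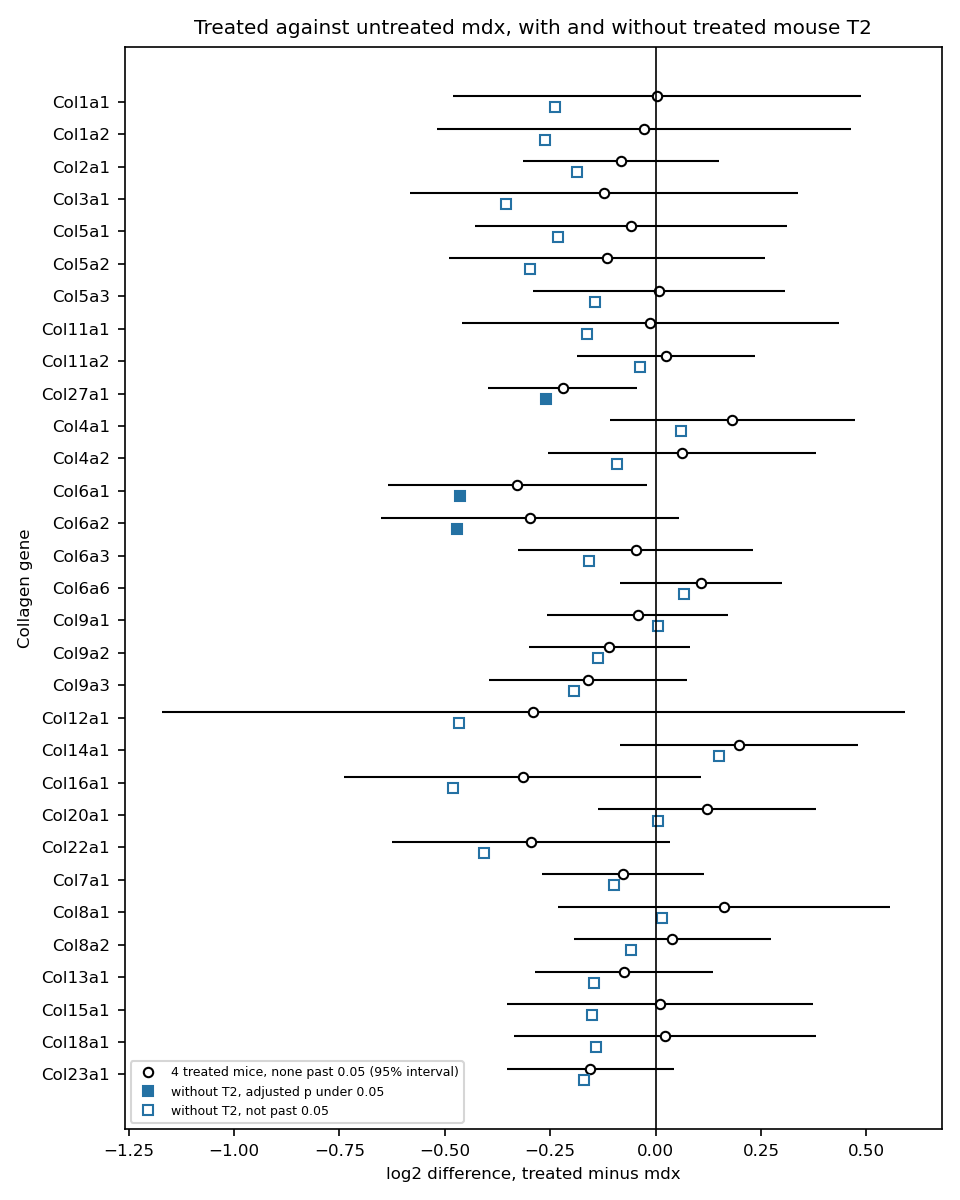
Log2 difference of treated minus untreated mdx mice (horizontal axis) for the 31 tested collagen genes, with all 4 treated mice (circles, 95% limma interval) and without T2 (squares, filled where the adjusted p was under 0.05). With T2 the differences lie between −0.33 and 0.20 with none called; without it Col6a1, Col6a2 and Col27a1 are called lower.

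Treated mice still differed from C57 in most of the same collagens. Limma called 13 of the 42 members higher and 1 lower, where 15.6% of all tested probe sets were called higher and 8.96% lower. Among these were 12 of the 13 genes that rose in *mdx*, the exception being Col22a1 (0.29, limma adjusted p = 0.203), and Col18a1 was added (0.55, adjusted p = 0.040). Because both comparisons use the same C57 mice, they are not independent of each other. The differences from C57 were 1.26 for Col3a1 (1.38 in *mdx*), 1.23 for Col4a1 (1.04), 1.02 for Col4a2 (0.96), 1.19 for Col6a3 (1.24), 0.57 for Col6a1 (0.90), 0.63 for Col6a2 (0.92), 1.15 for Col14a1 (0.95), 1.07 for Col15a1 (1.06) and 1.41 for Col8a1 (1.25). The only member called lower was Col9a1, a chain of cartilage collagen at the edge of detection, whose C57 mice read 5.02 to 5.10 and whose treated mice 4.60 to 4.86 (−0.33, limma adjusted p = 0.043); it passed the intensity minimum through the C57 group alone. Without T2 limma again called 13 members higher and 1 lower against C57 (backgrounds 20.3% and 13.8%), of which 13 were called with T2; Col9a1 gave way to Col2a1 (−0.30, adjusted p = 0.0225). With the methods' t-test, 8 members were higher at the study's threshold (5.92% of tested probe sets) and 5 at an adjusted p under 0.05 (5.79%).

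Chains that assemble into one molecule did not all move in step. The log2 level of one chain minus that of its partner in the same mouse is given as a description without a test; its size depends on the probes, so that only its change between mice is read. For Col6a1 over Col6a2 the C57 mice lay between −0.17 and 0.15, the *mdx* mice between −0.14 and 0.02 and the treated mice between −0.18 and 0, and the 3 groups overlapped. For Col1a1 over Col1a2 the C57 mice lay between 0.51 and 0.58, above the *mdx* mice at 0.38 to 0.48, and the treated mice at 0.41 to 0.51 overlapped both. For Col4a1 over Col4a2, whose genes lie head to head, the C57 mice lay between −0.13 and 0.02, below the treated mice at 0.06 to 0.26, and the *mdx* mice at −0.06 to 0.08 overlapped both. Col5a1 over Col5a2 read 0.77, 0.74 and 1.12 in C57 but 0.07, 0.04, 0.14 and 0.29 in *mdx* and 0.30, 0.17, 0.09 and 0.21 in treated mice. The C57 mice lay above all dystrophic mice, with means 0.74 apart between C57 and *mdx*. Col6a3 over Col6a1 read −0.18, −0.04 and −0.06 in C57, 0.23, 0.19, 0.32 and 0.25 in *mdx* and 0.54, 0.45, 0.54 and 0.58 in treated mice. The 3 groups did not overlap in it, T2 included. How many other pairs of genes part the groups in this way was not counted.

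**Figure D5:**
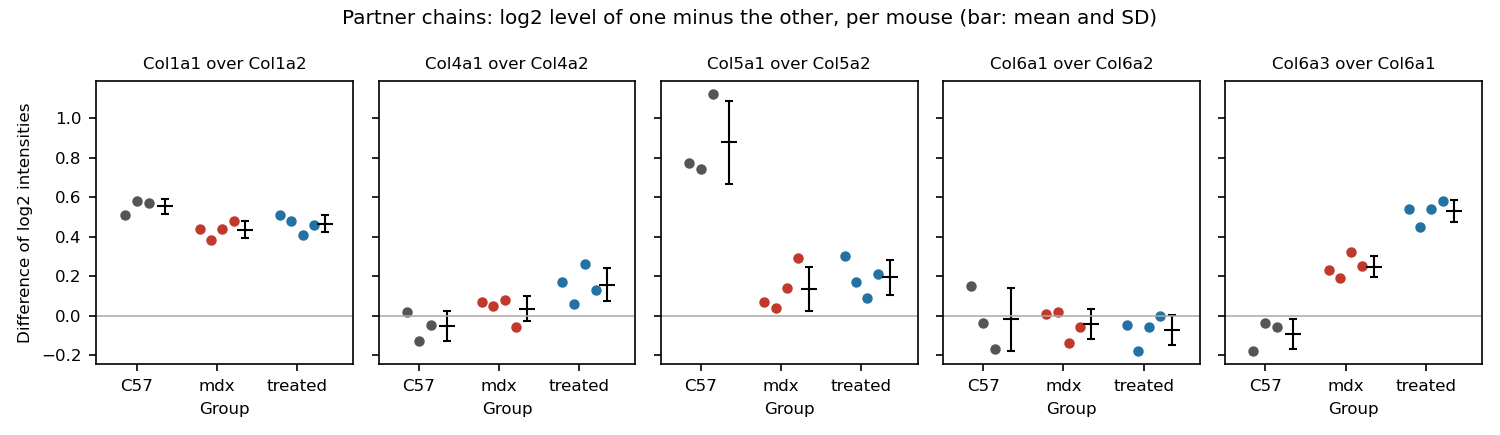
Log2 level of one collagen chain minus that of a chain it assembles with (vertical axis) in each mouse by group, with the group mean and SD beside the points. Col5a1 over Col5a2 is 0.74 or more in C57 mice and 0.30 or less in all others, and Col6a3 over Col6a1 climbs from below 0 in C57 over 0.19 to 0.32 in mdx to 0.45 to 0.58 in treated mice.

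The sequence just upstream of 3 collagen genes is shown as a description. The 3 were picked with the results known: Col3a1 and Col5a3 rose in *mdx* muscle, while Col1a2 did not pass the test. The part of these sequences in the rise was not tested. The stretches come from RefSeq windows of GRCm38.p6 that reach from 250 bases before to 50 bases after each gene's start, and 34 of the 42 members had a window. In capitals stand matches to CCAAT, the letters of the box bound by the factor NF-Y, or to TATAAA, the letters of the TATA box. Matches were taken at any distance from the start within the window.
Col1a2 (chr6:4505497-4505526, plus strand): aaaagaatggaaCCAATttaagaagccccg
Col5a3 (chr9:20815172-20815201, minus strand): gatctcagccagCCAATcagcgcgtggtgc
Col3a1 (chr1:45311409-45311438, plus strand): actaatgcatgtTATAAAcatatgcatagg
All 3 lie upstream of the annotated start, the matches 104, 117 and 111 bases before it. Searched on both strands, CCAAT was in the windows of 13 of the 34 members and of 3 of the 10 genes with a window among those that rose (Col4a1, Col4a2 and Col5a3), against 37.4% of all 32851 windows. TATAAA was in 5 of the 34 and 1 of the 10 (13.6% of all windows), and GGGCGG, a binding site of the factor Sp1, in 21 and 6 (35.7%). The windows of Col4a1 and Col4a2 share 78 bases at chr8:11312777-11312854, so that a match there counts for both. These matches are letters in a window and not binding sites.

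Genes that make, process, bind and degrade collagen were counted beside the members, with the same backgrounds as above. Of 20 genes for collagen folding and modification, 2 rose in *mdx* and none fell: P4ha3, a proline hydroxylase subunit, by 1.05 (limma adjusted p = 0.0025), and Serpinh1, which codes for Hsp47, by 0.66 (0.020). P4ha3 reached the intensity minimum in the *mdx* group alone, which bears on both its differences from that group. In treated against *mdx* mice P4ha3 and the prolyl isomerase gene Ppib were lower, by 0.59 and 0.58 (limma adjusted p = 0.039 and 0.027), and without T2 limma called 8 of the 20 lower, against the 12.0% of tested probe sets given above. Of 14 genes for procollagen processing and cross-linking, 3 rose in *mdx*: the lysyl oxidase relatives Loxl1 by 1.05 and Loxl3 by 0.61 (limma adjusted p = 0.0041 and 0.018), and Bmp1, the C-proteinase of procollagens, by 0.49 (0.0496). None of the 14 was called between treated and *mdx* mice, and without T2 limma called 3 lower. Of 6 collagen-degrading proteases, 3 rose in *mdx*: Mmp14, a membrane-bound collagenase, by 1.53 (limma adjusted p = 3.0e-04), Ctsk, which codes for cathepsin K, by 1.23 (0.016) and Mmp2, a gelatinase, by 0.80 (0.011).

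Several collagen receptor genes were higher after treatment than in untreated *mdx* mice. Of 10 receptor genes, 9 had a probe set and 4 rose in *mdx*: the integrin chain genes Itga11 by 0.75 and Itgb1 by 0.63, the endocytic receptor Mrc2 by 0.69 and the tyrosine kinase Ddr2 by 0.42 (limma adjusted p = 0.0055, 0.020, 0.040 and 0.039). In treated against *mdx* mice 3 rose and none fell: Itga1, a partner of Itgb1 in the receptor for type IV collagen, by 1.10, Itgb1 by 0.58 and Ddr2 by 0.43 (limma adjusted p = 0.0079, 0.028 and 0.033). Itga1 had not been called in *mdx* (0.05). Without T2 these 3 were again called higher, at a background of 16.4% of tested probe sets, and Mrc2 was called lower (−0.38, adjusted p = 0.026).

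Markers of the cells that could supply the collagen message moved as well, and are read against the 7.06% of tested probe sets called higher and 4.96% lower in *mdx*, and the 7.26% and 3.88% after treatment. Of 10 fibroblast markers, Lum, Mfap5 and Dpt rose in *mdx* by 1.56, 0.83 and 0.51 and none fell, and the summed level of the 10 lay at 12.71 to 12.86 (C57), 13.02 to 13.29 (*mdx*) and 12.87 to 13.11 (treated). In treated against *mdx* mice Ly6a, Fbln1 and Pi16 fell by 0.58, 0.86 and 1.01 (limma adjusted p = 0.016, 0.034 and 0.040). The other 7 were not called and had differences of either sign, from −0.42 in Thy1 to 0.50 in Pdgfra. Of 7 macrophage markers 5 rose in *mdx*, with summed levels of 9.83 to 10.38 (C57), 11.25 to 11.91 (*mdx*) and 10.97 to 11.32 (treated), and all 6 regenerating-fibre markers rose. In treated against *mdx* mice the macrophage marker Cd68 fell by 1.03 and Mrc1 rose by 0.49, and the regenerating-fibre marker Myl4 fell by 0.88 (limma adjusted p = 0.024, 0.038 and 0.036). Of 7 endothelial markers 1 rose in *mdx* (Cldn5, by 1.20), and Pecam1 and Tek rose in treated against *mdx* mice by 0.78 and 0.97. None of 6 adipocyte markers was called in *mdx*, and 4 of them, led by Cfd and Adipoq, fell by 1.38 to 1.94 in treated against *mdx* mice. Fabp4 went the other way by 0.26 and was not called (limma adjusted p = 0.143), and Lep stayed under the intensity minimum. Each marker called between treated and *mdx* mice was again called in the same direction without T2. Without T2 the calls lower became 5 of the 10 fibroblast and 5 of the 6 regenerating-fibre markers, at a background of 12.0%. Newly called higher were the fibroblast marker Pdgfra by 0.62, the endothelial marker Kdr by 0.65 and the adipocyte marker Fabp4 by 0.35. Their limma adjusted p-values were 0.024, 0.017 and 0.027, at a background of 16.4%. The part of any of these cell types in the collagen levels was not tested.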

How the data were processed

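RNA from the tibialis anterior of each mouse was hybridised to an Affymetrix Mouse Gene ST array. The authors processed the arrays in Affymetrix Expression Console by RMA with sketch-quantile normalization and deposited the intensities on the linear scale for 28350 probe sets; the genome build of their positions is not given in the sources used here. Median intensity per array was 27.5 to 28.6, and the number of arrays, 3 or 4 per group, limits the precision.

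Groups followed the labels. The log2 intensities of all 11 mice were fitted with limma 3.58.1 in R 4.3.3 (lmFit and eBayes, two-sided, a mean per group) over the 14494 probe sets with a mean intensity of at least 30 in a group, and p-values were adjusted by the Benjamini-Hochberg method. On simulated arrays the fit between *mdx* and C57 recovered 89 of 100 probe sets changed by 1 log2 unit and 98 of 100 changed by 2, with 9 calls among the unchanged of 14494 probe sets. These shares do not carry over to single collagen genes, whose spread varied: Col12a1, with a difference of 1.03 ± 0.44 (SE), was not called. A gene with 2 probe sets (Col5a1, Col6a6 and Col20a1) was read at the one with the highest mean level. Every member is accounted for by class, values are given for all called members, and values in every mouse for 12 main chains and the 10 largest called differences in *mdx*; up to 4 called genes are named per list, and others singled out were chosen after their values were seen. The members, classes and the 14 lists were chosen with earlier results of these data known. The result of 1 of these lists is not reported here. Alternatives were the methods' t-test, the study's threshold with limma, fits to each pair of groups alone, limma's trended and robust prior, and no filter or a minimum of 100. Further alternatives were median centring, repeated quantile normalization, averaging of probe sets per gene, a replicate block, leaving out each mouse, and leaving out C3 and T1 together. Symbols of all 42 members were found in RefSeq (GRCm38.p6), which also gave the promoter windows. Python 3.11.15, pandas 2.3.3, NumPy 2.4.6 and matplotlib 3.10.9 were used for summaries and plots.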

Additional observations from a re-analysis of the deposited data

Results flagged for a closer look

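In 36 groups of 4 mice, the *mdx* and treated mice for each of 18 collagen genes (the 12 main chains and every member called in any comparison of all 11 mice), 3 had a mouse far from the other 3 by Dixon's test, which chance alone gives in about 1 of 20 groups. In treated mice Col5a3 read 7.07 in T2 against 6.46 to 6.48 in the others. In *mdx* mice Col6a2 read 9.04 in M1 against 9.31 to 9.35, and Col9a1 read 4.57 in M3 against 4.85 to 4.86.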

How the results depend on the processing

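Direction was kept in all 531 values of the 27 called differences under the limma alternatives, and 481 of them stayed below an adjusted p of 0.05. The 27 were chosen because they were called in these same mice, so a kept direction is no independent support. Leaving out a mouse of the group not compared cannot change a difference. In *mdx* against C57 the lost calls were those of Col22a1 (10 of 19 alternatives, adjusted p up to 0.159) and Col6a6 (10 of 19, up to 0.107), and in treated against C57 those of Col9a1 (12 of 19, up to 0.117), Col18a1 (11 of 19, up to 0.134), Col6a2 (5 of 20, up to 0.0688) and Col6a1 (2 of 20, up to 0.075). Leaving out each mouse in turn gave 11 to 15 members called in *mdx* against C57, 0 to 3 in treated against *mdx* (3 only without T2) and 10 to 15 in treated against C57. The 14 members called in treated against C57 became 8 with the methods' t-test at the study's threshold, 5 with it at an adjusted p under 0.05, and 9 with a minimum intensity of 100, at which only 13 members were tested. Fitted to each pair of groups alone, limma called 15 members higher in *mdx* against C57, including all 13 of the main fit. In that comparison 1880 of 14494 probe sets were called in either direction. The fit to pairs called 0 members in treated against *mdx*, where 730 of 14494 probe sets were called. In treated against C57 it called 11 members and 2704 of 14494 probe sets. With probe sets averaged per gene, Col20a1 was called lower in *mdx* (−0.41, adjusted p = 0.033). Mouse numbers do not pair the groups (correlations of same-numbered deviations of −0.30 to 0.15), and with the replicate block 11, 0 and 12 members were called in the 3 comparisons. The counts with each mouse left out, with a minimum of 100 and with the replicate block are given without a share over all probe sets. They are not read as results about the members. Differences of low-signal chains near the intensity minimum are the least well resolved; 11 members under it have no test.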
